A study of Mus musculus with 45 samples.

Results

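Livers of wild-type mice collected 48 h after partial hepatectomy were compared with livers of wild-type mice at baseline. The comparison uses 5 of the 45 RNA libraries of the study, which are the 2 libraries labelled WT at 48 h (replicates 2 and 3) and the 3 labelled WT at baseline (replicates 1, 2 and 3). They were chosen from their genotype and time labels alone. All mice were C57Bl/6 and 8 to 12 weeks old and ate a normal diet. Those of the 48 h group had 2/3 of the liver removed in the morning, while no surgery is given for the baseline group. The other libraries cover WT livers at other times (24, 30, 40 and 96 h, 7 days and 4 weeks) and livers labelled Uhrf1hepKO (KO below), whose name denotes a deletion of Uhrf1 in hepatocytes. The driver of that deletion is not given in the sources used here, and the sex of the mice and the hour of tissue collection are not given either. Whether replicates are different animals is not labelled. The p-values reflect only how far libraries spread within their groups, possibly for technical reasons, and that spread was estimated over all 45 libraries.

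The liver regrows after such surgery because the remaining hepatocytes, which are normally quiescent, enter the cell cycle almost together. Cyclin D carries a cell out of quiescence, E2F factors switch on the genes of DNA synthesis, and cyclin B with its kinase Cdk1 then drives mitosis. Meanwhile the shrunken organ must keep supplying glucose, bile, plasma proteins and drug metabolism, and it also mounts the acute phase response, a burst of secreted defence proteins that follows tissue injury.

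Total gene counts were 17292597 and 17452757 in the 48 h libraries and 14548928, 13733277 and 13953418 at baseline. Levels are given as CPM (read counts scaled to one common library size with TMM factors), in the order of replicates 2 and 3 at 48 h and 1, 2 and 3 at baseline. A gene is called changed where edgeR's quasi-likelihood test gave a Benjamini-Hochberg adjusted p below 0.05 over the 14090 genes tested. Log2 fold changes are 48 h over baseline, with their standard error (SE). By this measure 4373 genes changed, which is 31% of those tested: 2205 were higher at 48 h (15.6%) and 2168 were lower (15.4%). Of these, 1207 were higher by at least 2-fold (8.57% of the genes tested) and 840 were lower by as much (5.96%), and 223 were higher by at least 16-fold, against 42 lower. On the authors' FPKM values the balance was different, with 3107 genes higher and 1009 lower by limma, and the median of all genes stood at 0.18 on the log2 scale, against 0 in the counts. The hepatocyte markers were abundant in all 5 libraries. Of 12 such markers 5 were called lower (41.7%, against 15.4% of all genes tested) and none higher, with a median log2 fold change of -0.52. Albumin (Alb) had 80500 and 54300 CPM at 48 h and 77200, 64500 and 70300 CPM at baseline, and was not called.

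The start of the cell cycle was marked by cyclin D1 and the E-type cyclins. Ccnd1, the cyclin that responds to growth signals, had 74.8 and 63.5 CPM at 48 h and 13.8, 12.9 and 5.20 CPM at baseline. Both 48 h values lay far above all baseline values, with a log2 fold change of 2.70 (SE 0.56, edgeR adjusted p = 0.000384). Ccne1, which pairs with Cdk2 at the entry to S phase, had 6.82 and 9.35 CPM at 48 h and 1.39, 1.29 and 0.611 CPM at baseline (log2 fold change 2.87, SE 0.55, edgeR adjusted p = 0.000136). Ccna2, the cyclin of S phase and G2, had 81.9 and 46.7 CPM at 48 h and was nearly absent at baseline (0.073, 0.715 and 0.917 CPM), a log2 fold change of 6.81 (SE 0.47, edgeR adjusted p = 3.55e-13). In all, 8 of 12 G1/S cyclins and kinases rose and none fell, with a median log2 fold change of 1.61. The kinases themselves moved little: Cdk4 had a log2 fold change of 0.31, Cdk6 of -0.12 and Cdk2 of 0.60, and none of these passed the test.

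The E2F family and its retinoblastoma-type partners did not move as one. E2f1, an activator of S phase genes, and E2f8, which represses the same genes later, both rose, by log2 fold changes of 2.27 and 1.73, the second with adjusted p = 0.163 against baseline replicate 3 alone (edgeR). Rbl1 (p107) had 25.6 and 18.9 CPM at 48 h, against 1.75, 1.86 and 0.764 CPM at baseline, and rose by 3.92 (SE 0.31, edgeR adjusted p = 1.91e-12). Rb1 (-0.26), Rbl2 (-0.33) and E2f4 (0.13), which act in quiescent cells, did not pass the test. E2f5 was called higher, a call that was lost without baseline replicate 1 or baseline replicate 3 (edgeR adjusted p = 0.12 and 0.062). Of the 13 family members, 7 rose and none fell.

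Inhibitors of the cyclin-dependent kinases were higher as well. Cdkn2c (p18) had 55.7 and 39.7 CPM at 48 h and 4.16, 4.51 and 2.67 CPM at baseline (log2 fold change 3.65, SE 0.22, edgeR adjusted p = 8.32e-15). Cdkn2d (p19) and Cdkn1b (p27) rose by 2.28 and 0.59, the second with edgeR adjusted p = 0.138 without 48 h replicate 2, so that 4 of 5 measured inhibitors were called higher. Cdkn1a (p21), which p53 and other stress signals induce, had 116 and 78.2 CPM at 48 h, but its baseline libraries disagreed, with 1.75, 1.65 and 29.9 CPM. Its log2 fold change of 3.14 (SE 0.84, edgeR adjusted p = 0.00436) was 1.74 with adjusted p = 0.238 when baseline replicate 3 alone served as baseline. Among 25 p53 targets, 10 rose (40%) and 2 fell (8%), against 15.6% and 15.4% of all genes tested. Gtse1, which is also a G2 phase gene, rose most (5.18). The p53 ligase Mdm2 rose by 0.44, a call that was lost without 48 h replicate 3 (edgeR adjusted p = 0.102) or without baseline replicate 1 (edgeR adjusted p = 0.0645).

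**Figure D1:**
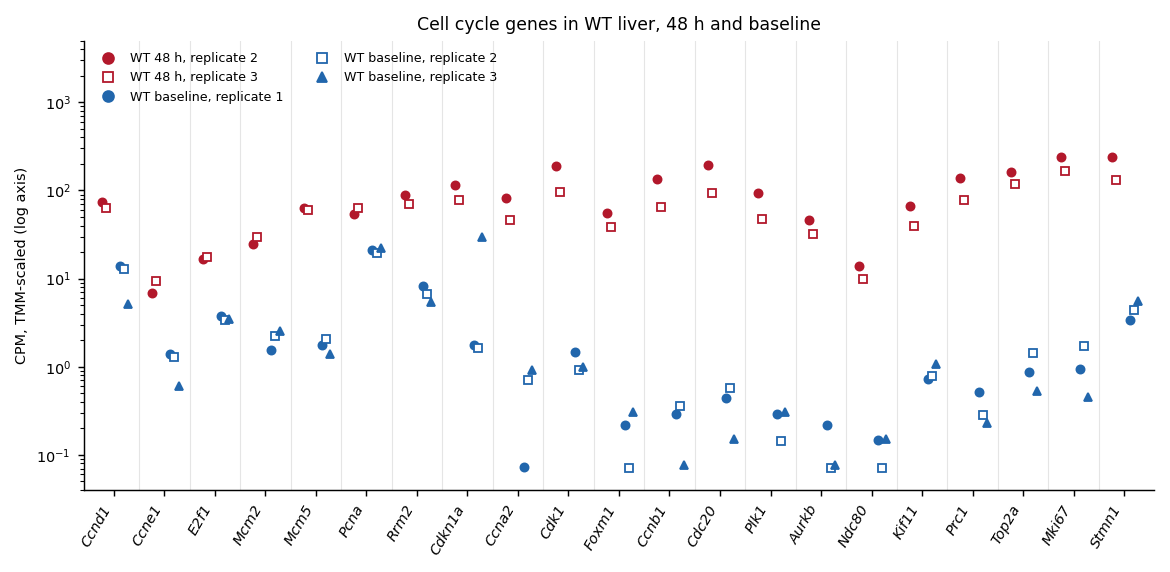
Level of 21 cell cycle genes in each library, as CPM on a log axis. Red symbols are WT at 48 h (circle replicate 2, open square replicate 3) and blue symbols WT at baseline (circle 1, open square 2, triangle 3). The 2 groups stand apart for nearly every gene, and the baseline libraries of Cdkn1a spread widely, from 1.65 to 29.9 CPM, as do those of Ccna2, from 0.073 to 0.917 CPM.

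Genes of DNA replication rose almost as a block: 42 of 46 were higher, 1 was lower and 3 did not pass the test, with a median log2 fold change of 2.32. The minichromosome maintenance (MCM) helicase, which opens the double strand, shows the pattern. Mcm5 had 62.7 and 60.7 CPM at 48 h and 1.75, 2.07 and 1.38 CPM at baseline (log2 fold change 5.14, SE 0.55, edgeR adjusted p = 1.08e-08). Mcm6, Mcm2, Mcm3, Mcm4 and Mcm7 rose by 4.26, 3.69, 3.10, 2.89 and 2.29, so every subunit of the ring was higher. Cdc6, which loads the ring onto origins, had 3.66 and 4.08 CPM at 48 h, while its 3 baseline libraries held 2 counts in all. The ratio of its 48 h level to its baseline level was 78.6, with a 95% counting interval of 21.4 to 656. Pcna, the sliding clamp of the polymerases, had 54.6 and 63.1 CPM at 48 h and was already present at baseline (21.1, 19.7 and 22.2 CPM), a log2 fold change of 1.48 (SE 0.24, edgeR adjusted p = 6.84e-06).

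The exception was Mcm10, an initiation factor, with 18.7 and 23.9 CPM at 48 h and 103, 99.1 and 122 CPM at baseline. Its groups did not overlap, and it fell by 2.34 on the log2 scale (SE 0.39, edgeR adjusted p = 2.09e-05). Pola2 (0.63), Rpa3 (0.10) and Pold2 (-0.06) were the members that did not pass the test.

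Enzymes that supply deoxynucleotides followed in part. Rrm2, the regulated subunit of ribonucleotide reductase, had 89.0 and 71.1 CPM at 48 h and 8.18, 6.72 and 5.50 CPM at baseline (log2 fold change 3.55, SE 0.32, edgeR adjusted p = 1.14e-10). Its partner Rrm1 rose by 3.03 and thymidylate synthase (Tyms) by 2.09, and 8 of 12 members rose. The one-carbon enzymes Shmt1 and Mthfd1, which hepatocytes express strongly at rest, fell by 1.12 and 0.43 on the log2 scale, the second with edgeR adjusted p = 0.108 without 48 h replicate 3. Thymidine kinase (Tk1) had 59.9 and 39.8 CPM at 48 h and 24.6, 26.9 and 42.5 CPM at baseline, so its groups overlapped, and it was not called (log2 fold change 0.67, edgeR adjusted p = 0.0641), except when 48 h replicate 3 or baseline replicate 3 was left out (edgeR adjusted p = 0.038 and 0.0146). Genes of DNA repair and the replication checkpoint rose in 25 of 28 cases, with a median of 3.27 and none lower. Brca1, of homologous repair, and Chek1, the checkpoint kinase, rose by 3.28 and 4.91.

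The mitotic genes made the widest separation between the groups. Across 5 lists of mitotic genes (cyclins and kinases, kinetochore, kinesins and spindle, cytokinesis, condensin) 94 of 97 members were called higher and none lower, against 15.6% higher among all genes tested. Summed over the 22 mitotic cyclins and kinases, the level was 1400 and 761 CPM at 48 h and 30.2, 30.2 and 35.4 CPM at baseline. Since these are bulk libraries, more cells in mitosis and more RNA in each such cell cannot be told apart. Replicate 2 was the higher of the 48 h libraries in all 97 genes of these lists.

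Ccnb1, the cyclin that triggers mitosis (chr13:100778650-100786570, minus strand), had 136 and 65.5 CPM at 48 h and 0.292, 0.358 and 0.0764 CPM at baseline, a log2 fold change of 8.64 (SE 0.73, edgeR adjusted p = 6.04e-11). Cdc20, the activator of the anaphase-promoting complex (chr4:118432901-118437352, minus strand), had 193 and 94.1 CPM at 48 h and 0.438, 0.572 and 0.153 CPM at baseline (log2 fold change 8.49, SE 0.72, edgeR adjusted p = 7.1e-11). Both had only traces at baseline and no overlap between the groups. Aurkb, the kinase that corrects chromosome attachment, had 45.7 and 32.5 CPM at 48 h and at most 0.219 CPM at baseline (log2 fold change 8.23, SE 0.48, edgeR adjusted p = 7.93e-15). Plk1 and Cdk1, kinases of mitotic entry, rose by 8.13 and 6.98. The phosphatase gene Cdc25c, which activates Cdk1, had no count in any baseline library and 12.4 and 6.27 CPM at 48 h. With 3 counts over the baseline group as a floor, its level was at least 129-fold higher at 48 h.

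Promoters of these genes are shown because the members moved together and because the CHR element (cell cycle genes homology region), the CCAAT box and the E2F site are elements known from promoters of this class. The 250 bases before the annotated start (RefSeq, GRCm38.p6) are printed 5′ to 3′ on the strand of the gene, with capitals for any match on either strand. The CHR letters searched were TTTGAA, with TTCGAA as the second form. The box is the run CCAAT itself. The E2F letters searched were TTTGGCGC, TTTGCCGC, TTTCGCGC and TTTCCCGC. In the Mcm5 window the 2 E2F matches lie on opposite strands and overlap each other.
Ccnb1 (chr13:100786487-100786736, minus strand): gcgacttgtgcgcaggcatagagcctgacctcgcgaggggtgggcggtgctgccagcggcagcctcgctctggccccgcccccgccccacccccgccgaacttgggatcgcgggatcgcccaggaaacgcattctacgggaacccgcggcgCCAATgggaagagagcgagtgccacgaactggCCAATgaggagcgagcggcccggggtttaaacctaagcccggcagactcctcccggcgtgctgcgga
Ccnb2 (chr9:70421555-70421804, minus strand): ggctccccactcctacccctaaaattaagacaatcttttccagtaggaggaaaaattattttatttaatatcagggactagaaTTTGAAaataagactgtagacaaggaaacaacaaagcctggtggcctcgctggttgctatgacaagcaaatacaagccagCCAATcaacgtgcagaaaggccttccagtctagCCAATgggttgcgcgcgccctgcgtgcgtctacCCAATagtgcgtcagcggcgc
Cdc20 (chr4:118437344-118437593, minus strand): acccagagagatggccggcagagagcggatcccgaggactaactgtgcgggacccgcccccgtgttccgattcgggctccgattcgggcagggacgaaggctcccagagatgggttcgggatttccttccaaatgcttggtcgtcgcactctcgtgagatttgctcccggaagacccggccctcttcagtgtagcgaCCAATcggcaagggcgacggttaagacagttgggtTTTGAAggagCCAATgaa
Mcm5 (chr8:75109259-75109508, plus strand): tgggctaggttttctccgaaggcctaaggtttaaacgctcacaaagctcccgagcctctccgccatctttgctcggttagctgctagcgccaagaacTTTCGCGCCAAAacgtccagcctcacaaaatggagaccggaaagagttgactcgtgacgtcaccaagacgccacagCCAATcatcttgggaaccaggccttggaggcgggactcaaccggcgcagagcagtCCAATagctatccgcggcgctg

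Each of the 3 mitotic promoters holds 2 or 3 CCAAT boxes. In Ccnb1 these begin 99 and 67 bases before the start, and in Ccnb2 they begin 87, 54 and 21 bases before it. Distances are from the RefSeq start. The gene positions given above for Ccnb1 and Cdc20 come from another annotation (GENCODE) and reach into these windows. A CHR match lies in the windows of Cdc20, 18 bases before the start, and of Ccnb2, 167 bases before it, while the Ccnb1 window has none. RefSeq promoters were matched for 81 of the 97 mitotic genes, in 89 windows. A CHR match was found in 38.2% of those windows, against 17.1% of all 32851 promoter windows in the table. CCAAT was found in 64% of the mitotic windows, against 33.8% of all. The E2F letters were in 7.87% of the mitotic windows and in 19% of 42 windows of DNA replication genes, against 1.86% of all. Among 13504 windows of genes tested in the counts the shares were 12.8% for CHR, 35.3% for CCAAT and 3.13% for E2F. These are shares of windows with the letters, given without a test, and they depend on the window. With the 50 bases after the start included, CHR was in 66.3% of the mitotic windows and in 19.2% of all, and E2F in 33.3% of the DNA replication windows and in 2.26% of all.

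The kinetochore joins chromosomes to the spindle, and 28 of its 29 listed genes rose, with a median log2 fold change of 4.64. Cenpf had 77.7 and 45.8 CPM at 48 h and 0.365, 0.429 and 0 CPM at baseline. Bub3, a checkpoint protein also used outside mitosis, stood at 86.1 and 48.3 CPM at 48 h, against 28.3, 21.2 and 23.5 CPM at baseline, and rose by 1.47. The member that was not called was Zwint (0.39). Of 22 kinesins and spindle genes, 21 rose. Hmmr, a microtubule-binding protein of the spindle, had 132 and 69.4 CPM at 48 h and at most 0.215 CPM at baseline (log2 fold change 9.60, SE 0.72, edgeR adjusted p = 3.73e-12). Numa1, which is nuclear in interphase, did not pass the test (0.03). All 11 cytokinesis and chromosome passenger genes and all 13 condensin and compaction genes were called higher. Prc1, which bundles the central spindle, had 140 and 78.5 CPM at 48 h and 0.511, 0.286 and 0.229 CPM at baseline. Mki67, the gene of the Ki-67 antigen used to count proliferating cells, had 242 and 165 CPM at 48 h, against 0.949, 1.72 and 0.458 CPM at baseline, a log2 fold change of 7.59 (SE 0.57, edgeR adjusted p = 4.99e-12).

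Cytoskeletal genes were higher as well. Of 30 tubulin, actin, keratin, lamin and related genes, 24 rose and none fell, with a median of 1.22. Without 48 h replicate 2 some of these calls were lost, among them Vim, Krt8 and Krt18, and that of Tmsb4x was gained. Without baseline replicate 1 Actg1 was lost and Tmsb4x gained (edgeR adjusted p = 0.0657 and 0.0463). Krt18 was also lost without baseline replicate 2 or baseline replicate 3 (edgeR adjusted p = 0.0662 and 0.188). Tuba1b, a main tubulin of the spindle, had 260 and 125 CPM at 48 h and 21.0, 21.6 and 19.8 CPM at baseline (log2 fold change 3.21, SE 0.25, edgeR adjusted p = 1.97e-12). Stmn1 (stathmin), which destabilizes microtubules, had 241 and 131 CPM at 48 h and 3.43, 4.36 and 5.58 CPM at baseline. The lamin gene Lmna, of the nuclear envelope, rose by 1.46. Tubulin genes are near-identical in parts, so reads may be split among them.

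Uhrf1, which guides the maintenance methyltransferase to newly copied DNA (chr17:56303321-56323486, plus strand), had 19.2 and 19.9 CPM at 48 h and 0.219, 0.644 and 0.382 CPM at baseline. The groups stood far apart, with a log2 fold change of 5.53 (SE 0.71, edgeR adjusted p = 2.58e-07). That methyltransferase, Dnmt1, had 32.5 and 27.3 CPM at 48 h and 6.64, 11.2 and 9.17 CPM at baseline and rose by 1.73. Hells, a remodeller needed for DNA methylation, rose by 3.89, the Polycomb methyltransferase Ezh2 by 2.72, and Suv39h1, which methylates histone H3 in heterochromatin, by 2.21. The de novo methyltransferase Dnmt3a was not called (-0.10). In all 13 of 20 genes of DNA methylation and heterochromatin rose and none fell, and without 48 h replicate 2 the number higher was 8.

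**Figure D2:**
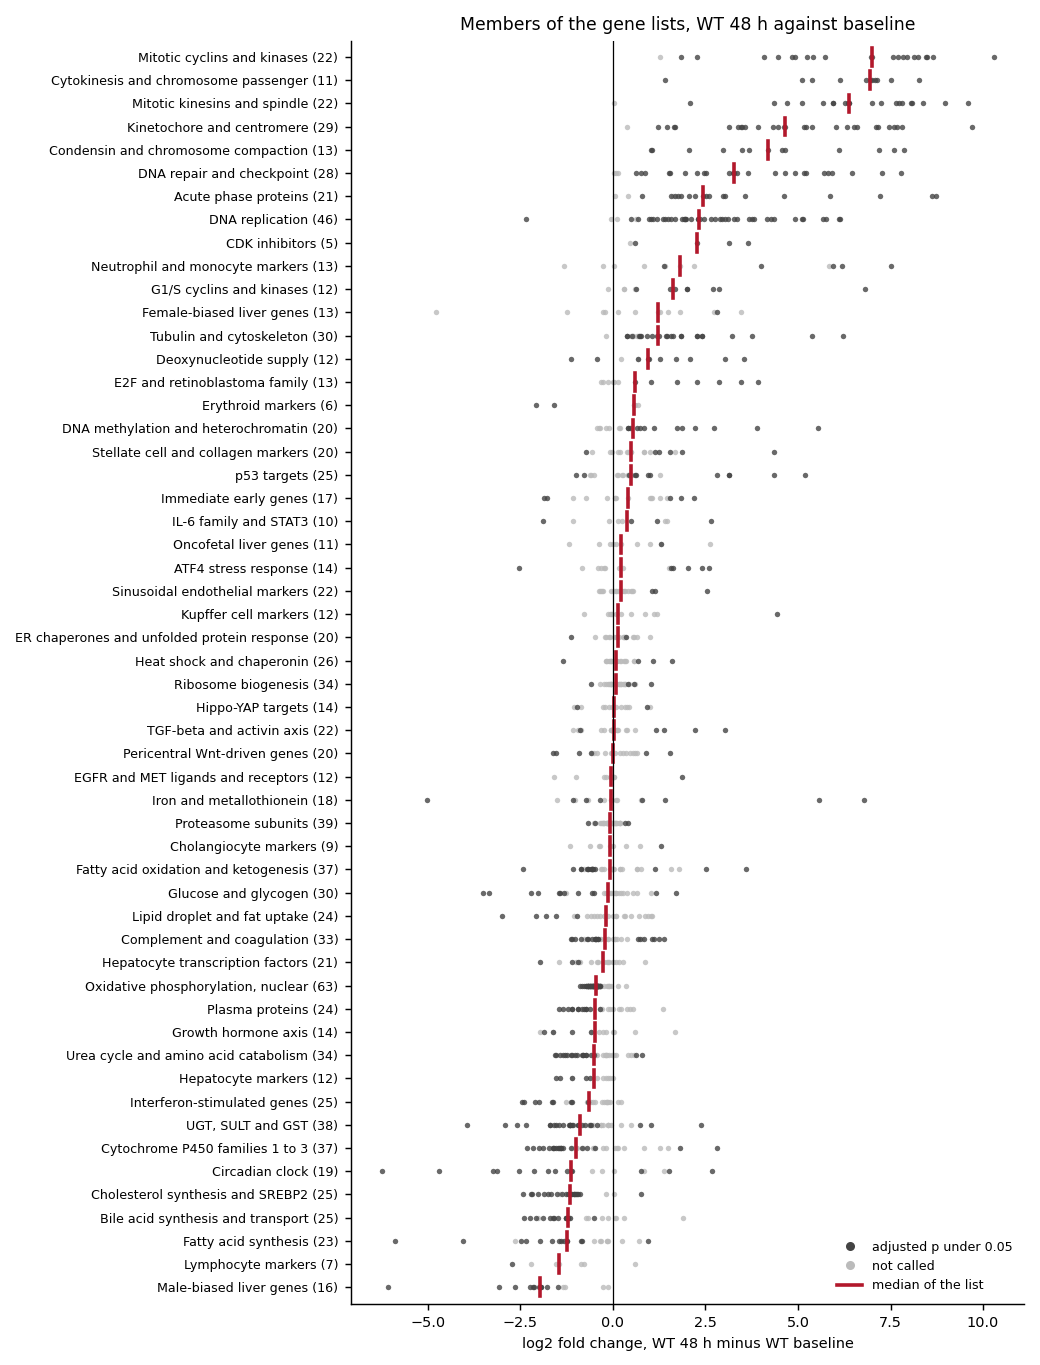
Log2 fold change (48 h over baseline) of every tested member of each gene list with at least 5 tested members. Dark points are called genes, pale points are not, and the red bar is the list's median. The mitotic lists lie farthest to the right, with medians between 4.18 and 6.99, and male-biased genes, lymphocyte markers, fatty acid synthesis and bile acid genes lie to the left, with medians of -1.96, -1.45, -1.23 and -1.22.

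Signalling genes that start regeneration were mostly near baseline at 48 h. Of 12 ligands and receptors of the EGFR and MET systems 1 was called, hepatocyte growth factor (Hgf), which stellate cells secrete. It had 8.60 and 8.45 CPM at 48 h and 2.26, 3.08 and 1.68 CPM at baseline, and rose by 1.86 (SE 0.36, edgeR adjusted p = 0.000123). The receptors Egfr (-0.03) and Met (-0.08) did not pass the test. Immediate early genes gave 3 higher (17.6%) and 2 lower of 17, a share near the 15.6% higher among all genes tested. Fos and Jun were not called, Klf6 rose, and Zfp36, which destabilizes inflammatory mRNAs, fell by 1.86 on the log2 scale. Myc had 3.11 and 3.08 CPM at 48 h and 8.32, 7.08 and 16.5 CPM at baseline and was called lower (log2 fold change -1.78, edgeR adjusted p = 0.0291), a call that was lost without 48 h replicate 2, 48 h replicate 3 or baseline replicate 3 (edgeR adjusted p = 0.152, 0.129 and 0.134), which left 1 gene of the list lower. In the IL-6 family, the signal carrier Stat3 had 229 and 244 CPM at 48 h and 85.7, 112 and 110 CPM at baseline (log2 fold change 1.20, SE 0.21, edgeR adjusted p = 2.5e-05). The oncostatin receptor Osmr rose by 2.64, whereas the receptor for leukaemia inhibitory factor, Lifr, fell to 140 and 121 CPM at 48 h, against 413, 596 and 449 CPM at baseline. Of 22 genes of the TGF-beta and activin axis 4 rose (18.2%, again near the share of all genes), among them the activin subunit Inhbb (3.02), and 1 fell, and of 14 Hippo-YAP targets 1 rose and 1 fell. Leaving out 48 h replicate 2 gave 2 higher and none lower in the first list and none called in the second. Leaving out baseline replicate 2 gave none lower in the first and 2 higher in the second.

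Of 14 genes of the growth hormone axis 4 fell and none rose, with a median of -0.48, and on FPKM 3 of 13 were lower. The receptor Ghr had 185 and 250 CPM at 48 h and 655, 700 and 635 CPM at baseline, without overlap, and fell by 1.61 on the log2 scale (SE 0.14, edgeR adjusted p = 4.36e-11). Igfals and Igfbp3, whose products carry IGF1 in blood, fell by 1.11 and 1.86 on the log2 scale. Igf1 itself was not called (-0.38, edgeR adjusted p = 0.051), except without 48 h replicate 3 (-0.52, edgeR adjusted p = 0.041). Male-biased liver genes, which pulses of growth hormone maintain, were lower in 12 of 16 cases and higher in none, with a median of -1.96. Hsd3b5, a steroid-metabolizing enzyme of this class (chr3:98618634-98630252, minus strand), had 4.75 and 5.6 CPM at 48 h and 422, 402 and 215 CPM at baseline, a log2 fold change of -6.07 (SE 1.00, edgeR adjusted p = 1.97e-05). Cyp4a12a fell by 3.08 on the log2 scale, and Slco1a1 had a log2 fold change of -2.23. The major urinary protein genes Mup3 and Mup20 fell by 1.93 and 1.98 on the log2 scale, the second with edgeR adjusted p = 0.0826 without 48 h replicate 2, although reads of these near-identical genes cannot be assigned with certainty. Of 13 female-biased genes tested, 1 was called (Cyp3a44, log2 fold change 2.82), which was not called without 48 h replicate 2, 48 h replicate 3, baseline replicate 1 or baseline replicate 3 (edgeR adjusted p = 0.0819, 0.0809, 0.0677 and 0.0884) and stood at -0.11 on FPKM. Without baseline replicate 2 the number called was 2.

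Most regulators of hepatocyte identity were not called, while in the counts a larger share of plasma proteins was called lower. Of 21 hepatocyte transcription factors, 3 fell (14.3%, near the 15.4% lower among all genes tested) and none rose in the counts. Their median of -0.27 became 0.03 on FPKM. Cebpa, which restrains hepatocyte proliferation, had 79.4 and 124 CPM at 48 h and 380, 418 and 393 CPM at baseline, without overlap, and fell by 1.96 on the log2 scale (SE 0.23, edgeR adjusted p = 1.61e-08). The bile acid receptor Nr1h4 (FXR) fell by 1.10 on the log2 scale, and Foxa2 by 0.93, a call that was lost without 48 h replicate 2, 48 h replicate 3 or baseline replicate 3 (edgeR adjusted p = 0.275, 0.0658 and 0.278). Without baseline replicate 1 the number lower was 5. Hnf4a, the central factor of the hepatocyte, had 591 and 640 CPM at 48 h and 497, 693 and 835 CPM at baseline, and was not called (-0.13). Of 24 plasma proteins 13 were lower and none higher in the counts, while 5 were higher and 10 lower on FPKM, and 8 were lower without 48 h replicate 2. Among them were apolipoproteins: Apoa2 had 2370 and 2980 CPM at 48 h and 8240, 6200 and 7790 CPM at baseline, and Apoe fell by 1.20 on the log2 scale.

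**Figure D3:**
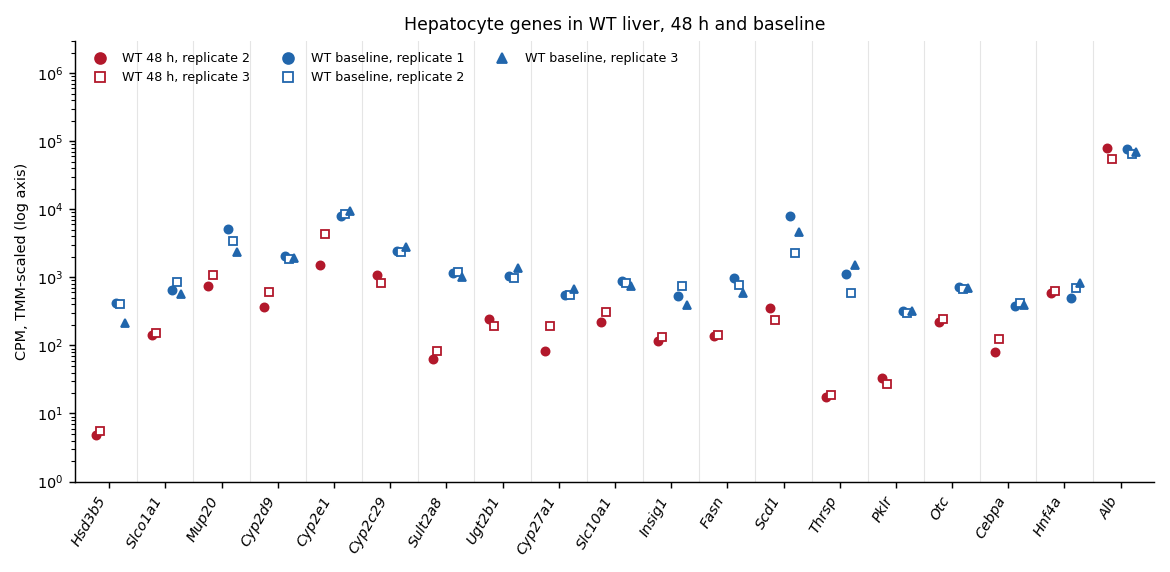
Level of hepatocyte genes in each library, as CPM on a log axis, with symbols as in the plot of cell cycle genes. Hsd3b5, Thrsp and Scd1 are widely apart between the groups, while Alb is at 80500 and 54300 CPM at 48 h and between 64500 and 77200 CPM at baseline.

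Drug metabolism had many genes lower and few higher. Of 37 cytochromes P450 of families 1 to 3, 19 fell and 2 rose, with a median of -1.01. The number higher was 0 without 48 h replicate 3 and 1 without baseline replicate 1. Cyp2e1, which oxidizes ethanol and paracetamol, had 1530 and 4400 CPM at 48 h and 8110, 8480 and 9300 CPM at baseline (log2 fold change -1.54, SE 0.27, edgeR adjusted p = 3.34e-05). On the log scale its 48 h libraries differed more from each other than the higher of them did from baseline. Cyp2f2, a periportal enzyme, had 327 and 291 CPM at 48 h and 1210, 1120 and 1120 CPM at baseline and fell by 1.90 on the log2 scale. Cyp3a11 stood at 1090 and 881 CPM at 48 h, against 2330, 2240 and 1820 CPM at baseline, and was not called (log2 fold change -1.11, edgeR adjusted p = 0.191). Among 38 conjugating enzymes (UGT, SULT and GST) 23 fell and 3 rose, of which 1 rose without 48 h replicate 2, without 48 h replicate 3 or without baseline replicate 1. The sulfotransferase Sult2a8 had 63.7 and 83.7 CPM at 48 h and 1170, 1210 and 1020 CPM at baseline, a log2 fold change of -3.94 (SE 0.41, edgeR adjusted p = 2.51e-09), and Ugt2b1 fell by 2.36 on the log2 scale. Members of these families share sequence, so reads may be split among close relatives.

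Bile acid genes fell on the synthesis and the transport side, with 15 of 25 lower and none higher. Slc10a1 (NTCP), which takes bile acids up from blood, had 222 and 311 CPM at 48 h and 887, 827 and 755 CPM at baseline, without overlap (log2 fold change -1.63, SE 0.18, edgeR adjusted p = 3.87e-09). Cyp27a1, of the alternative synthesis pathway, had 84.1 and 193 CPM at 48 h and 554, 543 and 673 CPM at baseline and fell by 2.09 on the log2 scale. Cyp7a1, the rate-limiting enzyme of the classical pathway, had 44.4 and 33.6 CPM at 48 h and 117, 37.8 and 320 CPM at baseline. The baseline libraries of this gene disagreed widely, and it was not called (-2.02, edgeR adjusted p = 0.116). The canalicular sterol exporters Abcg5 and Abcg8 fell, with log2 fold changes of -1.59 and -1.90. Against baseline replicate 3 alone these values were -0.74 and -0.71.

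In both branches of lipid synthesis more genes were called lower than higher. Thrsp, a protein of the lipogenic programme (chr7:97412938-97417730, minus strand), had 17.3 and 18.5 CPM at 48 h and 1120, 586 and 1500 CPM at baseline (log2 fold change -5.90, SE 0.61, edgeR adjusted p = 4.96e-09). Scd1, the stearoyl-CoA desaturase, had 358 and 239 CPM at 48 h and 7860, 2290 and 4690 CPM at baseline, which spread widely among themselves but did not overlap with 48 h. Fatty acid synthase (Fasn) had 138 and 144 CPM at 48 h and 969, 771 and 598 CPM at baseline (log2 fold change -2.47, SE 0.49, edgeR adjusted p = 0.000199). The transcription factor Srebf1, which drives these genes, had 151 and 108 CPM at 48 h and 320, 372 and 364 CPM at baseline. It was called lower (log2 fold change -1.45, edgeR adjusted p = 0.0213), but not without 48 h replicate 2 or 48 h replicate 3 (edgeR adjusted p = 0.0697 and 0.17). Of 23 genes of fatty acid synthesis 13 fell and 1 rose, and without 48 h replicates 2 or 3 the number lower was 8 or 7. The 1 that rose was Scd2, a desaturase isoform of other tissues (0.95, edgeR adjusted p = 0.0492), whose adjusted p lay between 0.0778 and 0.26 with any of the 5 libraries left out.

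Of 25 genes of cholesterol synthesis and the SREBP2 programme, 21 fell. Insig1, which retains SREBP in the endoplasmic reticulum and is itself a target, had 115 and 131 CPM at 48 h and 533, 736 and 399 CPM at baseline (log2 fold change -2.18, SE 0.37, edgeR adjusted p = 2.71e-05). Sqle, the squalene epoxidase, fell by 1.15 on the log2 scale, with edgeR adjusted p = 0.139 without 48 h replicate 2 and 0.141 against baseline replicate 3 alone. The number lower was 13 without 48 h replicate 2 and 11 with baseline replicate 3 alone.

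In the lists for use of fat and sugar more genes were called lower than higher in the counts. In fatty acid oxidation and ketogenesis 13 of 37 genes fell (35.1%, against 15.4% of all genes tested) and 3 rose (8.11%, against 15.6%). The median of -0.09 became 0.16 on FPKM, where 7 rose and 7 fell. Leaving out 48 h replicate 2 gave 6 lower, and leaving out baseline replicate 3 gave 5 higher. Cpt1a, which admits fatty acids to mitochondria, was not called (0.18). Cyp4a14, a target of the fatty acid receptor PPAR-alpha, had 208 and 448 CPM at 48 h and 6.35, 51.6 and 23.1 CPM at baseline without overlap (log2 fold change 3.60, SE 0.96, edgeR adjusted p = 0.00449). Against baseline replicate 3 alone its log2 fold change was 3.86 with edgeR adjusted p = 0.0767. Of 24 genes of lipid droplets and fat uptake 5 fell (20.8%, against 15.4% of all genes tested) and none rose. Among those lower were Fabp1 (-1.54) and Lipc (-2.09). The number lower was 3 without either one of the 48 h libraries.

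Of 30 genes of glucose and glycogen metabolism 10 fell (33.3%, against 15.4% of all genes tested) and 2 rose (6.67%, against 15.6%). The median of -0.12 became 0.06 on FPKM. Liver pyruvate kinase (Pklr) had 33.4 and 27.1 CPM at 48 h and 316, 297 and 323 CPM at baseline (log2 fold change -3.36, SE 0.28, edgeR adjusted p = 1.89e-11). The glucose transporter Slc2a2 (GLUT2) had 88.3 and 88.2 CPM at 48 h, against 437, 478 and 322 CPM at baseline, and fell by 2.22 on the log2 scale. Neither had any overlap between the groups. The 2 that rose were Ldha and Pkm. Ldha had 1810 and 2230 CPM at 48 h and 658, 585 and 607 CPM at baseline (log2 fold change 1.71, SE 0.16, edgeR adjusted p = 1.14e-10). Pkm, the pyruvate kinase isoform of growing tissues, rose by 1.17. The gluconeogenic genes Pck1 (-0.14) and G6pc (0.06) did not pass the test. The ion channel gene Hcn3, listed among the largest decreases (-6.21), shares exon positions with Pklr on the opposite strand, and the strand setting of the counting is not given in the sources used here.

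Of 34 genes of the urea cycle and amino acid catabolism, 17 fell and 2 rose. Otc, of the urea cycle, had 222 and 248 CPM at 48 h and 712, 676 and 691 CPM at baseline (log2 fold change -1.56, SE 0.20, edgeR adjusted p = 1.42e-07), while Cps1 (-0.28), Ass1 (-0.43) and Arg1 (-0.10) were not called. The number higher was 0 without 48 h replicate 2 and 1 without baseline replicate 2. Of 20 pericentral genes that Wnt signals maintain, 4 were lower (20%) and 2 higher (10%), near the 15.4% and 15.6% of all genes tested. Fewer were called lower without 48 h replicate 2, and fewer higher without 48 h replicate 3. Glutamine synthetase (Glul), the classical pericentral marker, was not called (-0.43), except without 48 h replicate 3 (-1.07, edgeR adjusted p = 0.000989). Of 22 markers of sinusoidal endothelium 3 were called higher (13.6%, against 15.6% of all genes tested): the Wnt ligands Wnt9b and Wnt2 and the Wnt-enhancing R-spondin Rspo3. Wnt9b had 4.35 and 8.17 CPM at 48 h and 1.02, 1.22 and 0.993 CPM at baseline (log2 fold change 2.53, SE 0.37, edgeR adjusted p = 1.92e-06), and Wnt2 and Rspo3 rose by 1.05 and 1.14. When 48 h replicate 2, 48 h replicate 3, baseline replicate 1 or baseline replicate 3 was left out, Wnt2 had edgeR adjusted p = 0.108, 0.0501, 0.0663 and 0.0827.

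Nuclear genes of oxidative phosphorylation were lower by small amounts. Of 63, 41 fell and none rose, with a median of -0.45 and the lowest at -0.90 (Sdhb, a subunit of complex II, with 134 and 127 CPM at 48 h and 245, 223 and 264 CPM at baseline). The number lower was 17 without 48 h replicate 3, 24 without baseline replicate 1 and 27 without baseline replicate 3, and on FPKM it was 16, with 2 higher. Lists for protein production were close to baseline in the counts. There 1 of 20 endoplasmic reticulum chaperones (5%) and 3 of 26 heat shock and chaperonin genes (11.5%) rose, against 15.6% of all genes tested. So did 3 of 34 ribosome biogenesis genes (8.82%) and 2 of 39 proteasome subunits (5.13%). In the same order 1, 1, 1 and 2 genes fell (5%, 3.85%, 2.94% and 5.13%, against 15.4% of all genes tested). On FPKM the numbers higher in the same 4 lists were 8, 8, 11 and 7, and without 48 h replicate 2 they were 0, 1, 0 and 0. No chaperone of the endoplasmic reticulum was called higher without 48 h replicate 3 or without baseline replicate 2, and ribosome biogenesis had 1 gene higher without baseline replicate 2 and 6 without baseline replicate 3. Of the heat shock genes, Hsp90aa1, a chaperone induced by stress, had 511 and 332 CPM at 48 h and 114, 106 and 198 CPM at baseline and rose by 1.60, with edgeR adjusted p = 0.066 against baseline replicate 3 alone. Of 14 ATF4 targets 5 rose (35.7%, against 15.6% of all genes tested). All of them were enzymes of serine, folate, proline or asparagine synthesis, such as Psat1 (2.60) and Mthfd2 (2.42). Fewer were called higher without 48 h replicate 2. The 1 target called lower was Trib3, whose log2 fold change turned to 0.58 against baseline replicate 3 alone.

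The acute phase response was strong and very unequal between the 2 libraries at 48 h. Saa1 (serum amyloid A, chr7:46740497-46742980, minus strand) had 1480 and 12100 CPM at 48 h and 32.3, 49.3 and 55.1 CPM at baseline (log2 fold change 7.22, SE 1.39, edgeR adjusted p = 0.000158). Lcn2 (lipocalin 2), which withholds iron from bacteria, had 503 and 2690 CPM at 48 h and 2.92, 4.29 and 4.89 CPM at baseline (log2 fold change 8.63, SE 1.28, edgeR adjusted p = 3.95e-06). Haptoglobin (Hp), which binds free haemoglobin, had 5490 and 19500 CPM at 48 h and 2260, 2170 and 2520 CPM at baseline (log2 fold change 2.43, SE 0.40, edgeR adjusted p = 1.22e-05). Replicate 3 was the higher of the 2 in all 21 acute phase genes, and in these 3 both stood above every baseline library. Of 21 acute phase proteins 18 rose and none fell, while Crp, Saa4 and Orm3 did not pass the test (0.06, 0.40 and 1.62). Orm3 was called without 48 h replicate 2 (2.50, edgeR adjusted p = 0.0291). Saa1 and Saa2 are near-identical, so their reads may be shared. Leaving out 48 h replicate 3 gave 13 higher and a median of 1.45 in place of 2.43.

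The 3 fibrinogen genes and complement C3 were called higher as well. Fga had 6540 and 14900 CPM at 48 h and 4160, 3970 and 4300 CPM at baseline (log2 fold change 1.37, SE 0.26, edgeR adjusted p = 8.63e-05), and C3 rose by 1.06. Without 48 h replicate 3 neither was called (Fga 0.66 with edgeR adjusted p = 0.088, C3 0.46 with edgeR adjusted p = 0.245). Protein C (Proc), an anticoagulant, had 276 and 329 CPM at 48 h and 646, 584 and 615 CPM at baseline, and C8b, of the membrane attack complex, fell by 1.13 on the log2 scale. In all 7 of 33 complement and coagulation genes rose and 13 fell in the counts, against 9 and 5 on FPKM. The number higher was 1 without 48 h replicate 3, and the number lower was 5 without 48 h replicate 2. The metallothioneins, which bind zinc and are part of the response, had the same imbalance: Mt2 had 779 and 1580 CPM at 48 h and 1.75, 20.2 and 9.93 CPM at baseline (log2 fold change 6.79, SE 1.39, edgeR adjusted p = 0.000321). Hepcidin itself (Hamp), the hormone that limits iron release, was not called (-1.02), but its relative Hamp2 had 1.63 and 4.08 CPM at 48 h and 148, 53.5 and 74.0 CPM at baseline, and fell by 5.02 on the log2 scale.

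Kupffer cell and neutrophil and monocyte markers had higher summed levels in replicate 3 than in replicate 2 at 48 h, whereas lymphocyte markers summed to 6.62 CPM in replicate 2 and 2.46 CPM in replicate 3. The macrophage receptor gene Marco had 12.0 and 132 CPM at 48 h and 4.75, 3.93 and 1.30 CPM at baseline (log2 fold change 4.42, SE 0.90, edgeR adjusted p = 0.000296), but without 48 h replicate 3 its log2 fold change was 1.84 with adjusted p = 0.177. It was the 1 Kupffer cell marker called of 12, and without 48 h replicate 2 there were 3. Their summed level was 108 and 443 CPM at 48 h and 176, 212 and 137 CPM at baseline, with Clec4f, the defining marker of resident Kupffer cells, at 18.6 and 36.9 CPM at 48 h and 50.3, 56.1 and 36.4 CPM at baseline. Of 13 neutrophil and monocyte markers 5 were called higher (38.5%, against 15.6% of all genes tested). The summed level of the 13 was 47 and 114 CPM at 48 h and 27.9, 31.3 and 18.5 CPM at baseline. S100a8, the defining neutrophil transcript, had 0.643 and 2.13 CPM at 48 h and no count at baseline, so it was at least 18.2-fold higher with 3 counts over the baseline group as a floor. The part of these cells in the acute phase values of replicate 3 was not tested.

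**Figure D4:**
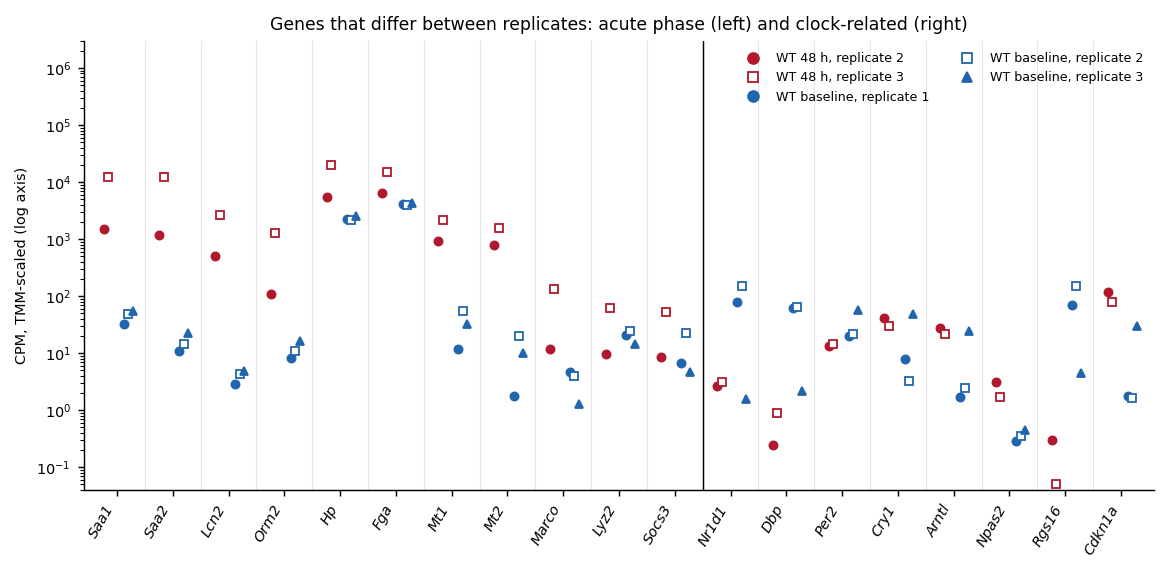
Level of acute phase and immune genes (left) and of clock genes with Rgs16 and Cdkn1a (right) in each library, as CPM on a log axis, with symbols as in the plot of cell cycle genes. On the left replicate 3 at 48 h is the highest library, with Saa1 at 12100 CPM against 1480 CPM in replicate 2, and on the right baseline replicate 3 leaves the other baseline libraries in every gene but Npas2. Rgs16 at 0 CPM in 48 h replicate 3 is drawn near the lower edge.

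Clock genes set baseline replicate 3 apart from the other 2 baseline libraries. Dbp, an output of the clock, had 0.247 and 0.895 CPM at 48 h and 62.1, 63.7 and 2.14 CPM at baseline. Nr1d1 (REV-ERB alpha), which represses Arntl, had 2.67 and 3.13 CPM at 48 h and 78.0, 148 and 1.60 CPM at baseline. Arntl (BMAL1) ran the opposite way, with 27.7 and 21.3 CPM at 48 h and 1.68, 2.43 and 24.4 CPM at baseline. In each of these genes baseline replicate 3 was close to the 48 h libraries. Against all 3 baseline libraries, 11 of 19 clock genes were called lower and 3 higher. Against baseline replicate 3 alone, 3 were lower and none higher, the log2 fold change of Nr1d1 turned to 0.89 (edgeR adjusted p = 0.688) and that of Dbp was -1.89 (edgeR adjusted p = 0.54). Leaving out 48 h replicate 2 gave 6 lower and 1 higher, and the number higher was also 1 without 48 h replicate 3 or baseline replicate 2 and 0 without baseline replicate 1. Rgs16 (0.297 and 0 CPM at 48 h, 68.6, 149 and 4.43 CPM at baseline) had the same form, and although it had the largest decrease of any gene named by size (-8.82), its adjusted p against baseline replicate 3 alone was 0.171. The hour of tissue collection and the effect of surgery therefore cannot be told apart for these genes.

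Interferon-stimulated genes were lower in 9 of 25 cases, with none higher. Ifit1 had 1.68 and 2.35 CPM at 48 h and 9.86, 16.7 and 5.20 CPM at baseline (log2 fold change -2.40, SE 0.42, edgeR adjusted p = 3.54e-05), and Irf7 fell by 1.64 on the log2 scale. Their lowest baseline library was again replicate 3. With it alone as baseline none was called and the median was 0.04, in place of -0.64, and without 48 h replicate 2 the number lower was 3.

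Markers of other liver cells gave smaller counts. Of 20 stellate cell and collagen genes 5 rose (25%, against 15.6% of all genes tested) and 1 fell (5%, against 15.4%). Among those higher were Hgf, described above, and Pdgfra (1.53), a receptor of these cells. The numbers higher and lower were 3 and 0 without 48 h replicate 2. The collagens Col1a1 (1.68) and Col3a1 (1.00) did not pass the test. Among 9 cholangiocyte markers tested 1 was called higher (11.1%, against 15.6% of all genes tested). It was Sox9 (1.30), which was not called without 48 h replicate 3. The call was also lost without baseline replicate 1 or baseline replicate 3 (edgeR adjusted p = 0.152 and 0.11). Of 6 erythroid markers tested 2 fell and none rose: Alas2 and Klf1, with log2 fold changes of -1.60 and -2.08. The other 4 were globin genes with values between 0.56 and 0.69 that did not pass the test, and the list's median was 0.56. Of 7 lymphocyte markers 1 was lower, with none lower when either 48 h library or baseline replicate 1 or 2 was left out. Of 11 oncofetal genes 1 was called higher (9.09%, against 15.6% of all genes tested). It was Peg3, an imprinted gene (1.30), which stood at 0.51 and was not called without 48 h replicate 3. Alpha-fetoprotein (Afp) was not called (0.66).

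Against 40 h, 48 h differed in few genes: 32 of 14090 (0.227%), with 6 higher (0.0426%) and 26 lower (0.185%). Many of those lower belong to DNA synthesis. Pcna had 54.6 and 63.1 CPM at 48 h and 166, 109 and 224 CPM at 40 h, without overlap (log2 fold change -1.50, SE 0.24, edgeR adjusted p = 0.0042). Rrm2 had 89.0 and 71.1 CPM at 48 h and 262, 126 and 270 CPM at 40 h (-1.45, SE 0.31, edgeR adjusted p = 0.0335). Ccne2, Pclaf, Dut and Mcm7 were lower at 48 h by log2 fold changes of -1.88, -1.66, -1.05 and -0.98. In the list of DNA replication genes 6 of 46 were lower at 48 h and none higher, with a median of -0.88. No mitotic cyclin or kinase was called in either direction, and their median was 0.13: Ccnb1 averaged 101 ± 50.1 CPM at 48 h (SD, n = 2) and 50.2 ± 7.34 CPM at 40 h (SD, n = 3; edgeR adjusted p = 0.412). Among the 6 higher at 48 h were Tifa, an adaptor in NF-kappaB signalling (2.54), and Dynll1, a dynein light chain (0.86). These counts rest on single libraries. With 40 h replicate 3 left out none was called, with 40 h replicate 1 left out 8 were, with 40 h replicate 2 left out 119, and with 48 h replicate 2 left out 66.

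Over the whole series of WT livers Ccnd1 averaged 10.6, 78.3, 136, 104, 69.1, 67.6 and 16.4 CPM at baseline, 24, 30, 40 and 48 h, 7 days and 4 weeks. Pcna reached its highest mean at 40 h (166 ± 57.5 CPM, SD, n = 3), and Ccnb1 was at 0.286 CPM at 24 h, 1.15 CPM at 30 h, 50.2 CPM at 40 h and 101 CPM at 48 h before it returned to 2.43 CPM at 7 days. Uhrf1 followed the replication genes, with 3.02, 32.3, 66.4 and 19.5 CPM at 24, 30, 40 and 48 h. Saa1 was high already at 24 h (10500 CPM) and 30 h (11500 CPM), whereas Thrsp was lowest at 24 h (8.03 CPM) and by 4 weeks had reached 135 CPM, against 1070 CPM at baseline. Hsd3b5 had its lowest mean at 48 h (5.17 ± 0.601 CPM, SD, n = 2) and stood at 328 CPM at 4 weeks, near its baseline of 346 CPM. These means are given as a description, and neighbouring times other than 40 and 48 h were not tested.

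**Figure D5:**
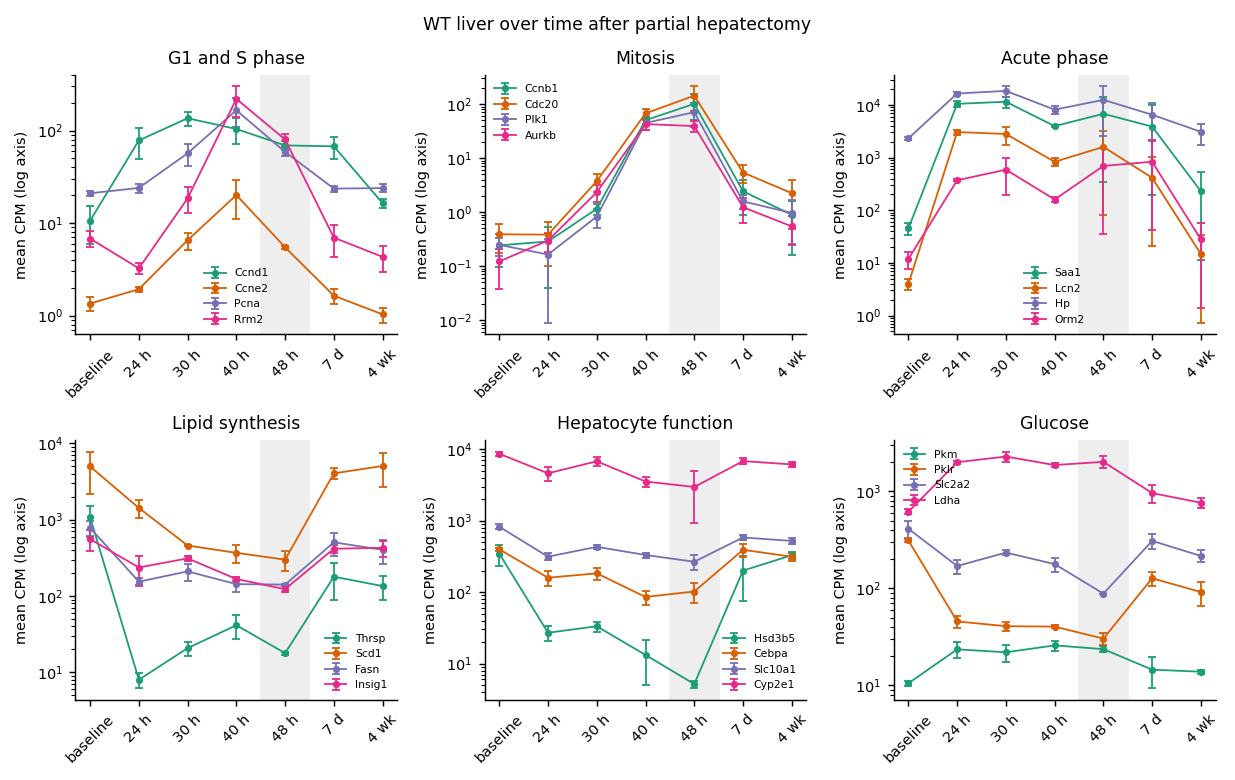
Mean ± SD of CPM in WT livers at baseline, 24, 30, 40 and 48 h, 7 days and 4 weeks (n = 2 at 30 h and 48 h, 3 otherwise), on a log axis, in 6 panels of 4 genes, with 48 h shaded. Lower bars that would reach 0 are cut short, and 96 h is not shown because its genotype labels were doubted. Pcna is highest at 40 h (166 CPM), Ccnb1 at 48 h (101 CPM), and Hsd3b5 is lowest at 48 h (5.17 CPM).

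Whether the 48 h response depends on Uhrf1 was asked by setting it beside that of KO livers (3 libraries at 48 h and 3 at baseline). Uhrf1 itself had 7.37, 3.88 and 3.69 CPM in KO livers at 48 h and 19.2 and 19.9 CPM in WT livers at 48 h, and at baseline 0, 0.247 and 0.103 CPM in KO and 0.219, 0.644 and 0.382 CPM in WT. The count covers the whole gene and all cell types, so transcripts of other cells or of remaining exons are included. In KO livers 5072 genes changed between 48 h and baseline (36%), with 2678 higher (19%) and 2394 lower (17%). The mitotic response was as broad as in WT, with 21 of 22 mitotic cyclins and kinases higher and a median of 6.79, against 6.99 in WT, and Ccnb1 averaged 128 ± 24.7 CPM in KO at 48 h (SD, n = 3) and 101 ± 50.1 CPM in WT (SD, n = 2). DNA replication genes were higher in 41 of 46 cases, against 42 in WT. Counts in some other lists were less alike. Of 63 nuclear genes of oxidative phosphorylation 12 were lower in KO, against 41 in WT, with medians of -0.14 and -0.45. Of 39 proteasome subunits 9 were higher in KO, against 2 in WT. Lists were not tested for a difference between the genotypes. Saa1 averaged 1960 ± 731 CPM in KO at 48 h (SD, n = 3), and its 2 WT values lay on either side, at 1480 and 12100 CPM. In the test of the difference between the responses no gene was called by edgeR (0%), with 869 at an unadjusted p below 0.05 and the smallest adjusted p at 0.166, and DESeq2 called 1. With 2 WT libraries at 48 h, this does not show that the responses were alike.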

How the data were processed

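Polyadenylated RNA of mouse liver was sequenced as paired-end reads on an Illumina HiSeq, per the labels' protocols. The submitters' processing notes name FastQC 0.11.5, Trimmomatic, TopHat2 2.1.0, Cufflinks 2.2.1, HTSeq, DESeq2 and the mm10 build, with parameters, annotation and strand setting not given in the sources used here. The authors deposited whole-number read counts for 19966 genes, not normalized, which were used for all results. They also deposited FPKM values (46472 entries, 66 of them under repeated IDs), which served as an alternative on the log2 scale with a pseudocount of 1 or 0.1.

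Groups came from the labels. Counts of all 45 libraries were fitted together in edgeR 4.0.16 (R 4.3.3; default filter on low counts, TMM factors, quasi-likelihood test, a mean for each group), so that the spread was estimated with 29 residual degrees of freedom. The 14090 genes kept hold at least 99.944% of the counts of each library. Alternatives used limma 3.58.1 and DESeq2 1.42.0, other scaling factors and filters, other sets of libraries, each library left out in turn, and a replicate block. Baseline replicate 3 alone as baseline, TMM factors without abundant and secreted genes, and promoters of tested genes alone were alternatives chosen after seeing the data. Replicates differed beyond sampling noise, with a chi-square per degree of freedom of 120 at 48 h and 34.3 to 41.1 at baseline, so none was counted as a duplicate. Counting intervals (95%) and the floor of 3 counts cover counting error only.

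The libraries, the 55 gene lists (1185 symbols, 1171 with counts) and the tests were chosen with earlier results of these data known. Genes were named by rule: the 12 with the largest change in each direction (mean log2 CPM of at least 1, groups not overlapping), the 6 largest in each direction with a mean of at least 200 CPM, anchor genes of each list with the 3 smallest p-values in each direction, the 5 largest in each other comparison, and Uhrf1. Genes named beside these to complete a complex or pathway were chosen after their values were seen. Symbols were matched for 19873 genes, and gene positions are those of GRCm38. Of 374 genes named by the rule, 66 share exon positions with another counted gene, among them Ccnd1, Cdc20, Dbp, Nr1d1 and Pklr. The genotype labels at 96 h were doubted, and those libraries enter only the shared estimate of the spread. The baseline columns carry the name of a 40 h set in their headers, and a set and the baseline group cannot be told apart. Some genes are not reported here.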

Additional observations from a re-analysis of the deposited data

How the results depend on the processing

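Of 274 named genes called at 48 h, 161 kept their call in each alternative other than those chosen after seeing the data. Scaling with RLE or upper quartile factors, other filters, DESeq2 (4390 genes called), and the fit without the 96 h libraries left the number called within 1.5 times of 4373. The fit of only the 5 libraries called 2829 genes, with 1307 lower. Leaving out 1 library at a time gave 2586 to 3995 genes called, 1419 to 2046 higher and 1167 to 1949 lower, each lowest without 48 h replicate 2. With baseline replicate 3 alone, an alternative chosen after seeing the data, 2573 were called, 1421 higher and 1152 lower, and Nr1d1, Trib3 and Isg15 turned to 0.89, 0.58 and 0.13 on the log2 scale. TMM factors without abundant and secreted genes, also chosen after seeing the data, called 4370. On FPKM 75.5% of the called genes were higher, against 50.4% on counts: 1009 were lower with a pseudocount of 1, 1002 with 0.1 and 1020 without a filter, where 3496 were higher. Of 3658 called genes found in the filtered FPKM values, 3623 kept their sign and 2616 their call. Cyp3a44 stood at -0.11, -0.06 and -0.11 in these 3 FPKM fits. The median was negative on counts and positive on filtered FPKM for the EGFR and MET, hepatocyte factor, complement, iron, lipid droplet, fatty acid oxidation, glucose and proteasome lists, and the reverse for female-biased genes. The cause was not tested. Deviations from the group mean showed no sign that replicate numbers pair the samples (same-number correlations of -0.02 and 0.03). With 2 libraries at 48 h these 2 values are not independent, so they cannot exclude pairing. With the number as a replicate block, 4236 genes were called in the fit of all libraries, and 1509 (872 higher, 637 lower) in the fit of 5. For 48 h against 40 h, 32 genes became 59 without the 96 h libraries, 19 with upper quartile factors, 20 with no filter, 11 with the replicate block, 127 with DESeq2, 2 on FPKM with a pseudocount of 0.1 and 86 on FPKM with no filter, and 0 to 119 with 1 library left out. For the response in KO minus that in WT, 0 genes became 1 with DESeq2, 21 on FPKM with no filter, and 0 to 3 with 1 library left out, the 3 being without KO 48 h replicate 1. The share of mitotic promoters with CHR letters was 66.3% in windows of 300 bases. Depth limits the baseline levels of mitotic genes, which rest on few counts, so their fold changes are less precise than the 48 h levels.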
